A study of Mus musculus with 12 samples.

Results

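The 35 genes described here encode the machinery of glycolysis and proteins that cells make more of when oxygen is short. They were chosen by name: 16 glycolytic enzymes, 5 genes for transport and control of the pathway, and 14 other known targets of the hypoxia-inducible factors (HIF). All 35 were found in both deposited tables, which share 20844 genes of 23186 in either. RNA came from mouse embryonic fibroblasts taken at embryonic day 13.5 to 14.5, in 4 groups of 3 libraries. Cells of the first strain were homozygous for an inducible Nrf2 D29H allele, a missense change in the transcription factor NRF2 (gene Nfe2l2). They received either adenoviral Cre, which switches the D29H allele on, or an empty adenovirus, and the labels describe the cells with the empty virus as functionally Nrf2 knockout. Cells of the other strain were homozygous for an inducible Keap1 R554Q allele, a missense change in KEAP1, which hands NRF2 to a ubiquitin ligase. Under Cre adenovirus they expressed Keap1 R554Q, and under the empty virus Keap1 was functionally wild type. Every group was infected at a multiplicity of 500, grown with 10% serum and collected 4 days after infection. The labels do not say whether replicates were separate embryos or dishes, so the p-values measure the spread between these libraries, which may be technical. Cre itself went with the mutant allele in both strains, and the effects of Cre and of the allele cannot be told apart.

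Glycolysis splits glucose into pyruvate through a chain of cytosolic enzymes, and lactate dehydrogenase turns pyruvate into lactate, which leaves the cell through monocarboxylate transporters. HIF-1 alpha and HIF-2 alpha are transcription factors that prolyl hydroxylases mark for degradation while oxygen is present. When they accumulate they pair with ARNT, bind short DNA sites with the core ACGTG or GCGTG and raise many glycolytic genes along with genes for blood vessel growth, pH control, collagen hydroxylation and mitophagy. Fibroblasts in culture use glycolysis heavily.

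Library totals ran from 14963004 to 23818477 counted reads, and the glycolytic enzymes together took 0.844% to 1.16% of the reads of a library. Nqo1, a standard NRF2 target, was at 108 to 134 CPM (counts scaled to the library total) in the D29H libraries against 7.65 to 10.8 in the labelled knockout, and at 305 to 378 in R554Q against 33.0 to 33.4 in Keap1 wild type. Counts per gene do not show whether a transcript is intact or translated, so they do not test the label of functional knockout. The Nfe2l2 transcript was at 40.1 to 46.5 CPM in the libraries labelled knockout and 41.7 to 44.2 in Keap1 wild type (log2 fold change -0.01, edgeR adjusted p = 0.965). In D29H it was at 49.6 to 57.1 CPM, above the labelled knockout without overlap (0.31, adjusted p = 0.0713). The NRF2 targets checked run the way the label says: relative to Keap1 wild type, edgeR called Nqo1 (-1.90, adjusted p = 3.3e-10), Txnrd1 (-0.67), Srxn1 (-0.67), Gclc (-0.42) and Gclm (-0.32) lower in the libraries labelled knockout. Mitochondrial genes took 0.982% to 1.77% of the reads in D29H, highest in replicate 2, against 0.725% to 0.905% in the labelled knockout, without overlap, and 0.839% to 1.09% in R554Q against 0.807% to 1.09% in Keap1 wild type. All 10 fibroblast markers examined were above 1 CPM in every library. Summed, they were at 22360 to 22910 CPM in D29H against 24180 to 26350 in the labelled knockout, without overlap, and at 19770 to 22390 in R554Q against 20780 to 23610 in Keap1 wild type. The 9 listed macrophage markers (7 of them above 1 CPM in every library) summed to 134 to 176 CPM in the labelled knockout, 163 to 185 in D29H, 102 to 111 in Keap1 wild type and 72.3 to 87.0 in R554Q. The 4 listed muscle markers summed to 16.1 to 17.7 CPM in R554Q against 20.7 to 22.03 in Keap1 wild type, also without overlap, and to 18.7 to 22.2 in D29H against 20.6 to 24.3 in the labelled knockout. These sums are carried by a few abundant genes. Gene by gene, 3 of 10 fibroblast markers were lower in every D29H library and 1 (Pdgfra) was higher. With R554Q, 4 of 9 macrophage markers (Lyz2, C1qa, C1qb and Aif1) and 2 of 4 muscle markers (Des and Tnnt2) were lower in every library. The other macrophage and muscle markers, Csf1r and Cd68 among them, overlapped there. In R554Q 2 of 10 fibroblast markers (Pdgfra and Pdgfrb) were higher and 1 (Col3a1) lower. Of 6 neural markers there, 2 (Tubb3 and Sox2) were higher and 1 (Nes) lower. Among 6 epithelial markers, 2 were higher with D29H, and 1 was higher and 2 lower with R554Q. Of 6 endothelial markers 1 was higher with D29H and 1 lower with R554Q. Over all genes, 13.0% lay below and 12.4% above with D29H, and 13.5% and 14% with R554Q. The part of the mitochondrial share and of these markers in the member values was not tested. The 6 neural markers summed to 196 to 209.7 CPM in D29H against 208.5 to 233 in the labelled knockout, and to 222 to 243 in R554Q against 229.8 to 251 in Keap1 wild type, with overlap in both. Endothelial markers summed to at most 23.8 CPM, epithelial markers to at most 8.71 and erythroid markers to at most 0.723. In bulk RNA, fewer cells of a type and less RNA per cell cannot be told apart.

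Levels of different genes were compared on the deposited FPKM, which are per gene length. The later steps of glycolysis dominated the list. Median FPKM over the 12 libraries was 1539 for Gapdh, which oxidises glyceraldehyde phosphate, 960 for Pkm, the pyruvate kinase of these cells, 814 for Eno1 and 723 for Ldha, the muscle-type subunit of lactate dehydrogenase. Aldoa was at 601, Pgk1 at 416, Tpi1 at 234, Pgam1 at 149.5 and Gpi1 at 93.4. The enzymes of the phosphofructokinase and hexokinase steps were far less abundant, with Pfkl at 30.9, Hk1 at 22.5, Pfkm at 11.8, Hk2 at 9.08 and Pfkp at 7.94. Among the other HIF targets Adm, the vasodilator peptide adrenomedullin, stood highest at 61.4, followed by P4ha1 at 34.99 and Vegfa at 34.7, whose ranges overlapped. Aldoc (0.730), Car9 (1.32) and Ankrd37 (1.34) were the least abundant members, and their ranges over the libraries overlapped as well.

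In D29H libraries compared with those labelled knockout, 5 of the 35 members fell and 2 rose. Those that fell were Ak4, Slc16a3, P4ha1, Ldha and Pgam1, and those that rose were Eno2 and Car9. Calls here and below have an edgeR quasi-likelihood adjusted p under 0.05 over all genes tested in the comparison. Over all 14370 genes tested, 1.28% were called lower and 3.47% higher. By count, 26 of the 35 members had a log2 fold change below 0, with a median of -0.20 beside 0.0004 over all genes, and in 17 members all 3 D29H libraries lay below all 3 labelled-knockout libraries, against 13.0% of all genes. For 2 members (Eno2 and Car9) the D29H libraries all lay above, against 12.4% of all genes. Most of these calls needed replicates 2 and 3 of D29H. Without either of them only Slc16a3 and Ak4 kept their calls, and without labelled-knockout replicate 2 the number called lower was 3, while without D29H replicate 1 the number called lower was 13.

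**Figure D1:**
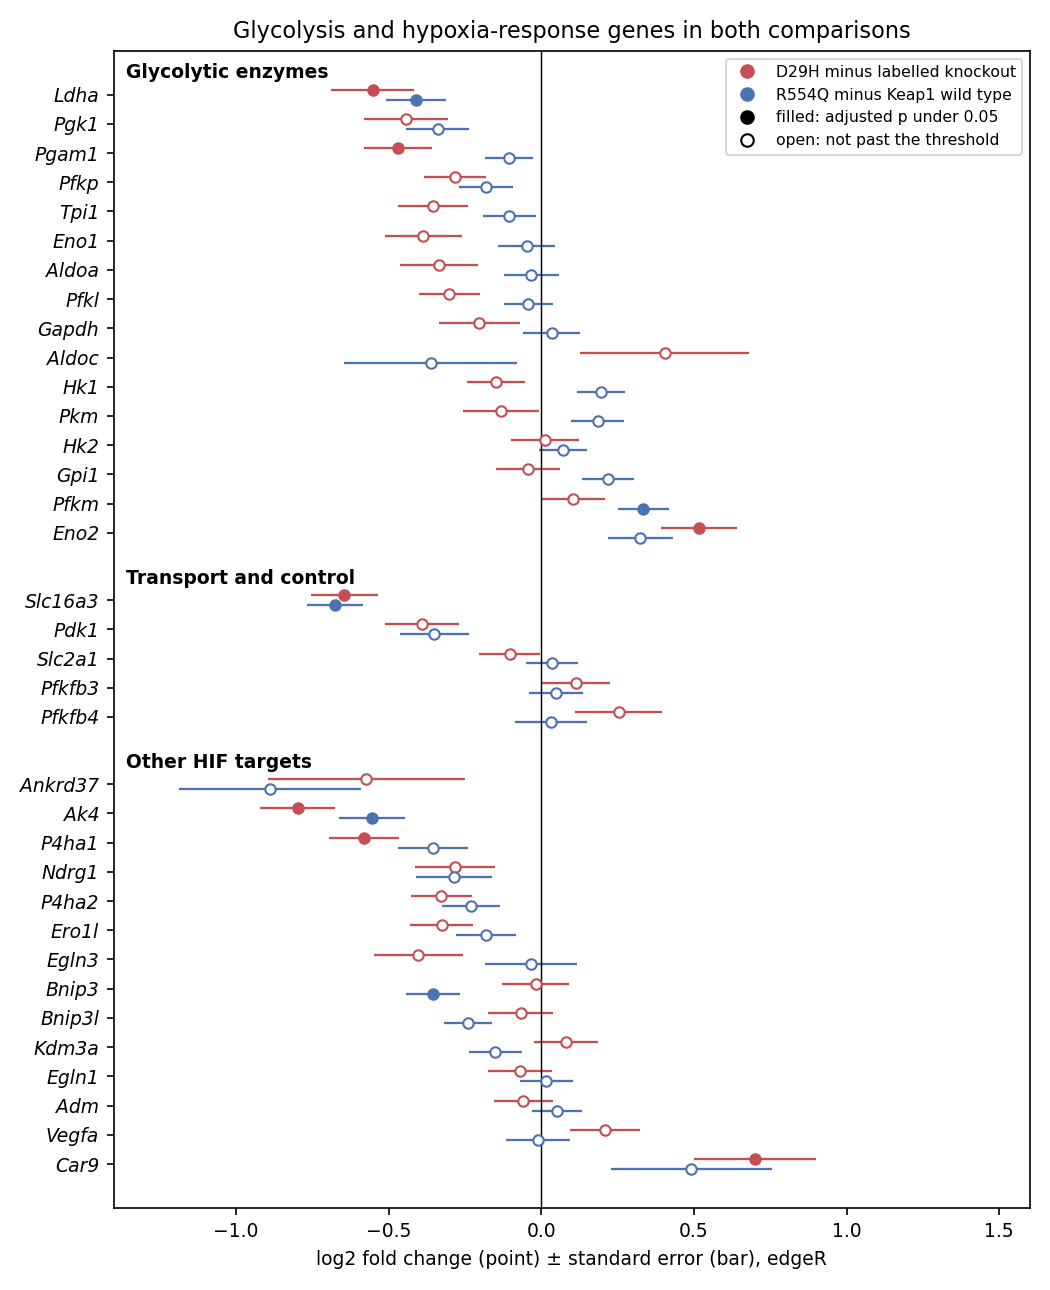
Log2 fold changes of the 35 members (points, edgeR) with their standard errors (bars), for D29H minus labelled knockout and R554Q minus Keap1 wild type, 3 libraries a group. Filled points passed an adjusted p of 0.05. Slc16a3, Ak4 and Ldha are filled in both comparisons and lie left of 0, while 4 D29H and 2 R554Q calls stand in 1 comparison only.

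Among the 16 glycolytic enzymes, 12 had a log2 fold change below 0 in the D29H comparison and 2 were called lower. Ldha read 1451, 1502 and 1413 CPM in the labelled knockout and 1223, 825 and 934 in D29H. The groups did not overlap, and D29H replicate 1 lay nearest to the controls. This is a fitted ratio of 0.682, or -0.55 on the log2 scale (SE 0.14, adjusted p = 0.0215). Pgam1, the phosphoglycerate mutase, read 271, 282 and 304 CPM against 234, 194 and 192. The D29H libraries were again all lower, at -0.47 (SE 0.11, adjusted p = 0.0186). Neither call held without labelled-knockout replicate 2.

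The neighbouring steps of the lower chain had values of the same sign that missed the threshold. Pgk1, which makes the first ATP of the pathway, read 783, 814 and 817 CPM against 746, 468 and 567, and was fitted at -0.44 (SE 0.14, adjusted p = 0.0612). Eno1, the main enolase, read 1634, 1819 and 1778 CPM against 1508, 1227 and 1274 (log2 fold change -0.39, SE 0.13, adjusted p = 0.0722). In both genes the groups did not overlap and D29H replicate 1 stood apart from the other two. Tpi1 (log2 fold change -0.35, adjusted p = 0.0678) and Pfkl, the liver-type phosphofructokinase (-0.30, adjusted p = 0.0748), also had groups that did not overlap. The same held for Pfkp (-0.28, adjusted p = 0.0969). For Aldoa (-0.33), Gapdh (-0.20), Pkm (-0.13), Gpi1 (-0.04), Hk2 (0.01) and Pfkm (0.11) the groups overlapped. Gapdh is often used as a reference gene, and its libraries spanned 1999 to 2460 CPM in the labelled knockout and 1793 to 2195 in D29H.

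Eno2 moved the other way. It encodes the neuronal-type enolase, the neuronal-type enolase, which catalyses the same step as Eno1, and read 36.5, 32.5 and 24.7 CPM in the labelled knockout and 37.9, 47.9 and 49.0 in D29H. The D29H libraries were all higher, replicate 1 by only a small margin, and the log2 fold change was 0.52 (SE 0.13, adjusted p = 0.0202). The call was lost without D29H replicate 2 or 3. Per length, Eno2 remained a small share: its ratio to Eno1 was 0.0131 ± 0.00306 (SD, n = 3) in the labelled knockout and 0.0248 ± 0.00573 in D29H. Aldoc, another brain-enriched isoform, read 1.18 to 2.77 CPM against 2.15 to 3.98, with overlapping groups and an adjusted p of 0.388.

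Of the 5 transport and control genes, 1 was called in the D29H comparison. Slc16a3, the lactate exporter MCT4, read 52.0, 58.2 and 62.2 CPM in the labelled knockout and 39.8, 31.6 and 39.0 in D29H. The groups stood well apart, and the log2 fold change was -0.64 (SE 0.11, adjusted p = 0.00133). Pdk1, which shuts pyruvate out of the mitochondrial citrate cycle by inhibiting pyruvate dehydrogenase, read 18.2, 17.97 and 17.4 CPM against 15.7, 12.4 and 13.0. All D29H libraries were lower, but the adjusted p was 0.0615. The glucose importer Slc2a1 (log2 fold change -0.10) and the 2 bifunctional kinases that set fructose-2,6-bisphosphate, Pfkfb3 (0.11) and Pfkfb4 (0.25), had overlapping groups.

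Among the 14 other HIF targets, 11 had a log2 fold change below 0 in the D29H comparison, and Ak4 and P4ha1 were called lower. Ak4, a mitochondrial adenylate kinase, read 17.6, 15.2 and 17.8 CPM in the labelled knockout and 9.57, 10.1 and 9.49 in D29H. The D29H libraries were close to each other and far below the controls. At -0.80 on the log2 scale (SE 0.12, adjusted p = 4.5e-04) it had the largest fall of any member in this comparison. P4ha1, the catalytic subunit of the prolyl hydroxylase that matures collagen, read 159, 175 and 214 CPM against 134, 116 and 118. Its controls were widely spread, but all D29H libraries lay below them (log2 fold change -0.58, SE 0.11, adjusted p = 0.00577). Without D29H replicate 2 or 3 the call for P4ha1 was lost.

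Car9, the cell-surface carbonic anhydrase that exports acid and is a classical HIF-1 marker, rose. It read 2.66, 2.30 and 2.55 CPM in the labelled knockout and 3.66, 4.26 and 4.29 in D29H, a log2 change of 0.70 (SE 0.20, adjusted p = 0.0430). The groups did not overlap, but the counts are low and the call stood in 7 of 15 alternative analyses at the same threshold and was lost when any library other than D29H replicate 1 was left out. An antisense gene, Gm12454, overlaps Car9 and had 34.98% as many counts in this table. Strand use in counting is not stated, so reads of the pair cannot be told apart. P4ha2 (-0.33, adjusted p = 0.0577), the other catalytic subunit of the collagen enzyme, Ero1l (-0.33, adjusted p = 0.0628), an oxidase for protein disulphides, Egln3 (-0.40, adjusted p = 0.0998), a HIF prolyl hydroxylase, and Ndrg1 (-0.28, adjusted p = 0.198) had lower D29H libraries without overlap. Vegfa, the vessel growth factor, was at 107 to 136 CPM in the labelled knockout and 120 to 159 in D29H. The mitophagy receptors Bnip3 (-0.02) and Bnip3l (-0.07), the hydroxylase Egln1 (-0.07), the histone demethylase Kdm3a (0.08) and Adm (-0.06) also overlapped between the groups. Ankrd37 was at 1.26 to 1.63 CPM against 0.687 to 1.21, without overlap and with an adjusted p of 0.289.

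**Figure D2:**
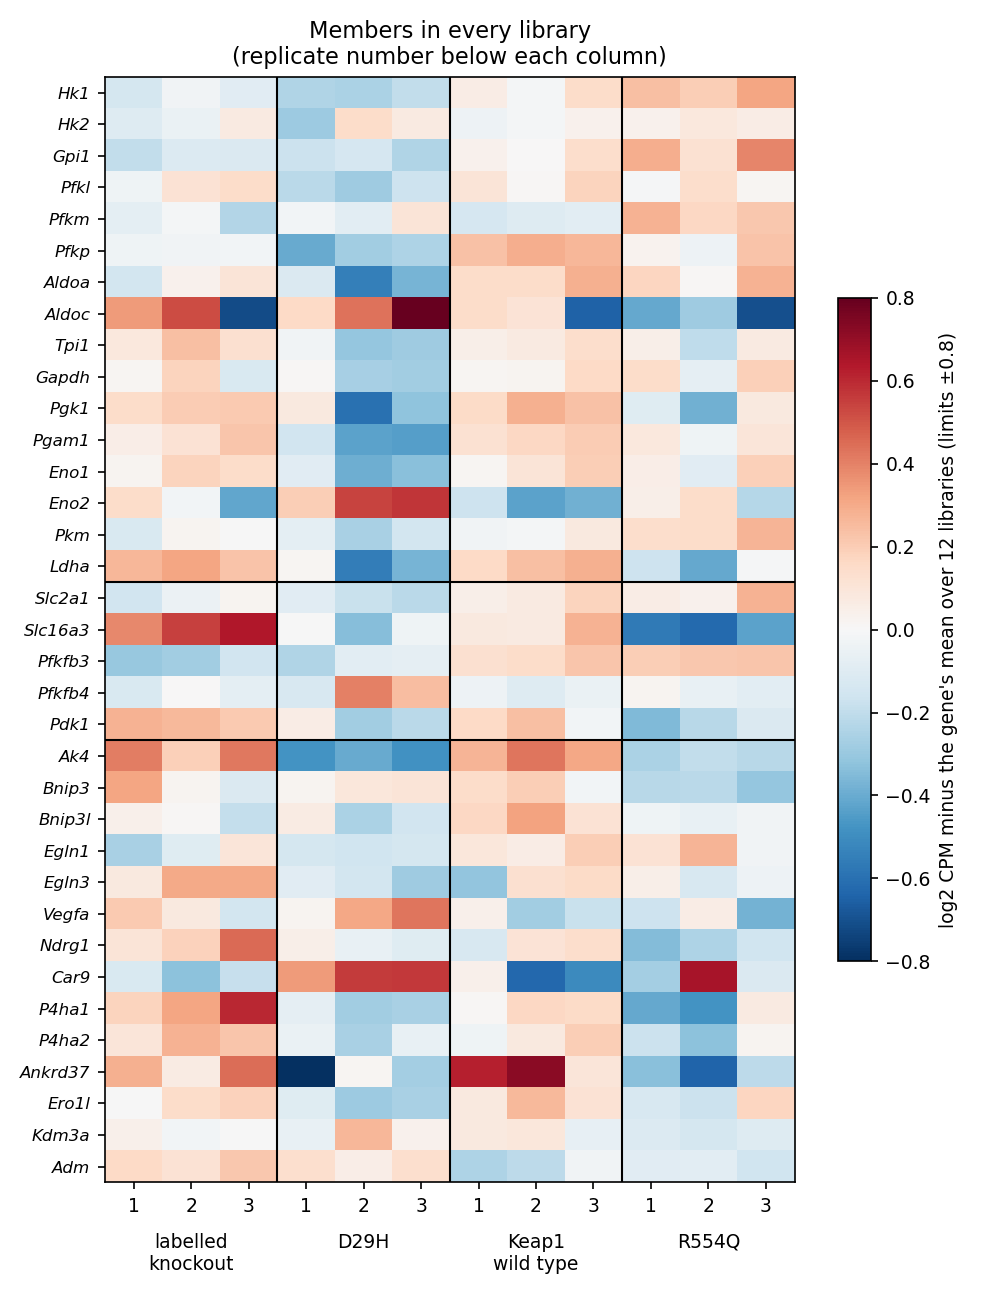
Each cell is the log2 CPM of a member (rows) in a library (columns) minus the mean of that gene over the 12 libraries, with colours limited at -0.8 and 0.8. D29H replicate 1 is paler than replicates 2 and 3 for most enzymes from Tpi1 down to Ldha, and R554Q replicate 3 is paler than the others for several members that lie below the controls.

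With Keap1 R554Q expressed, 4 of the 35 members fell (Slc16a3, Ak4, Ldha and Bnip3) and 1 rose (Pfkm). Over all 14128 genes tested, 2.40% were called lower and 3.77% higher. By count 22 of 35 members had a log2 fold change below 0, with a median of -0.05 beside -0.001 over all genes. In 11 members the R554Q libraries all lay below the wild type libraries and in 4 they all lay above, against 13.5% and 14% of all genes. Libraries of both tables differed in GC dependence, with r from -0.267 to 0.354 in the Nrf2 table, where offsets raised the number called lower from 5 to 9. In the Keap1 table, deviations from the group mean correlated with GC content across genes at r = -0.409 in R554Q replicate 3 and -0.539 in wild type replicate 2, and at 0.146 to 0.46 in the others; genes are not independent replicates. Leaving out R554Q replicate 3, the highest of its group for most enzymes, raised the number called lower to 12. Leaving out R554Q replicate 1 or 2 or wild type replicate 2 left 2, which were Slc16a3 and Ak4 each time.

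Ldha was the 1 enzyme called lower in the R554Q comparison. It read 1351, 1430 and 1474 CPM in Keap1 wild type and 1078, 908 and 1201 in R554Q, without overlap, and the log2 fold change was -0.41 (SE 0.10, adjusted p = 0.0219). This call was lost without R554Q replicate 1 or 2 or wild type replicate 2 or 3, and with all 12 libraries in 1 fit. Pgk1, at 786, 861 and 833 CPM against 662, 542 and 747, was fitted at -0.34 (SE 0.10, adjusted p = 0.0565). Of the steps between Pgk1 and Ldha, Pgam1 was lower in every R554Q library (-0.11, adjusted p = 0.432), Eno1 overlapped between the groups (-0.05) and Pkm was higher in every R554Q library (0.18, adjusted p = 0.201). Earlier in the chain Tpi1 (-0.10), Pfkl (-0.04), Aldoa (-0.03) and Gapdh (0.03) overlapped between the groups.

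Pfkm, the muscle-type phosphofructokinase, read 31.2, 31.9 and 32.4 CPM in Keap1 wild type and 41.5, 38.5 and 39.8 in R554Q. Both groups were tight and apart, at 0.33 on the log2 scale (SE 0.08, adjusted p = 0.0253). Offsets for GC content and length, or leaving out any of 4 libraries (R554Q replicate 1 and each wild type replicate), ended the call. The gene Senp1 overlaps Pfkm on the other strand and had 75.2% as many counts. It read 25.96, 27.9 and 25.2 CPM in wild type and 26.2, 29.5 and 26.8 in R554Q, with overlap between the groups, and without a stated use of strand reads of Pfkm and Senp1 cannot be told apart. Other enzymes had R554Q values above wild type that missed the threshold: Eno2 (0.32, adjusted p = 0.0771), Gpi1 (0.22, adjusted p = 0.128) and Hk1 (0.19, adjusted p = 0.137).

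Of the transport and control genes, Slc16a3 was again the called member. It read 42.1, 42.0 and 48.5 CPM in Keap1 wild type and 27.0, 25.96 and 29.7 in R554Q. The groups stood apart by -0.68 on the log2 scale (SE 0.09, adjusted p = 2.1e-04). Its closest relative in the same transport step, Slc16a1 (MCT1), was not called (-0.10), and the ratio of Slc16a3 to Slc16a1 per length was 1.89 ± 0.0753 (SD, n = 3) in wild type and 1.28 ± 0.115 in R554Q. In the other strain, where Slc16a1 was called lower with D29H as well (-0.43), the ratio overlapped between the groups, at 1.95, 2.43 and 1.82 in the labelled knockout and 1.86, 1.63 and 1.80 in D29H. Pdk1 read 16.8, 17.7 and 14.8 CPM against 11.8, 12.9 and 13.9, without overlap and with an adjusted p of 0.0731. Pfkfb3, Pfkfb4 and Slc2a1 had log2 fold changes between 0.03 and 0.05.

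Ak4 and Bnip3 were the called members among the other HIF targets, of which 11 of 14 again had a log2 fold change below 0. Ak4 read 16.1, 17.9 and 16.5 CPM in wild type and 11.2, 11.6 and 11.4 in R554Q, a log2 change of -0.55 (SE 0.11, adjusted p = 0.00504). The R554Q libraries nearly coincided, well below every control. Bnip3, which tags mitochondria for removal, read 42.3, 43.8 and 37.5 CPM against 32.7, 32.9 and 30.7 (-0.35, SE 0.09, adjusted p = 0.0263), and its call was lost with GC and length offsets and without any of 4 libraries (R554Q and wild type replicates 1 and 2). Its paralogue Bnip3l was also lower in every R554Q library (-0.24), with an adjusted p of 0.0805. P4ha1 read 141, 158 and 156 CPM against 106, 101 and 148. R554Q replicate 3 lay among the controls, and the adjusted p was 0.0724. Ankrd37 had the lowest fitted value of all members in this comparison, -0.89, but at 0.770 to 1.98 CPM its SE was 0.30 and its adjusted p 0.0824. Ufsp2 overlaps Ankrd37 on the other strand and had 1866% and 1633% as many counts in the Nrf2 and Keap1 tables, and without a stated use of strand their reads cannot be told apart. Car9 (0.49) overlapped between the groups, with R554Q replicate 2 highest at 4.58 CPM. The remaining targets Ndrg1, P4ha2, Ero1l, Kdm3a, Egln3, Vegfa, Egln1 and Adm ran from -0.29 to 0.05, none past the threshold.

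**Figure D3:**
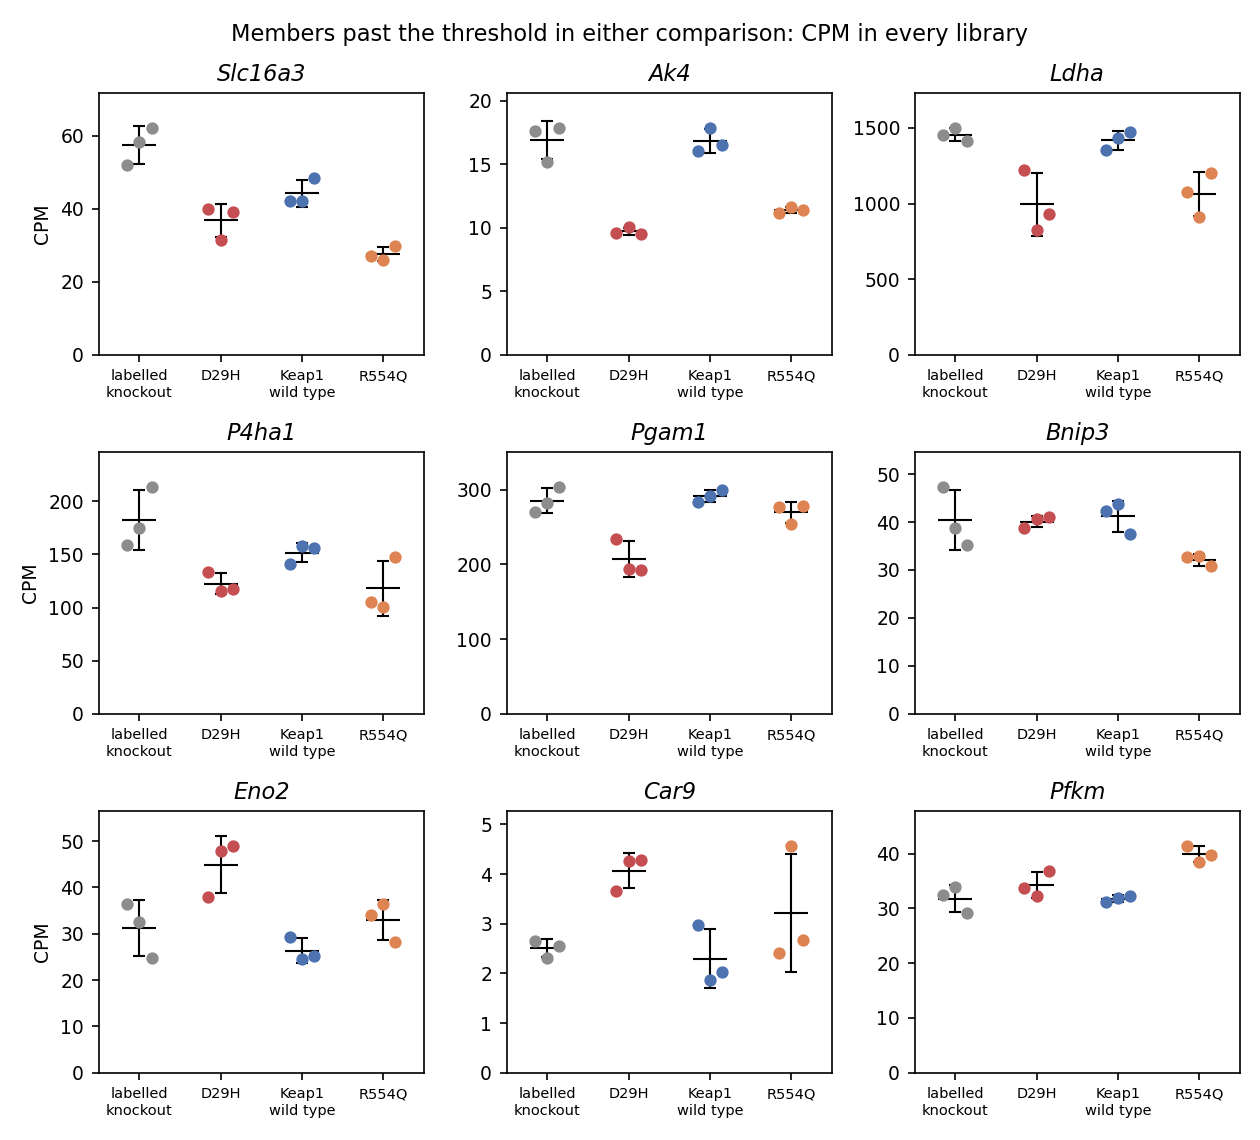
CPM of single members in each library (points, scaled over all 12 libraries) with the group mean and SD (bar) for the 4 groups. Slc16a3, Ak4 and Ldha lie below their empty-virus controls in both strains, while Eno2 and Car9 lie above theirs in D29H.

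Slc16a3, Ak4 and Ldha were therefore called lower in both comparisons, 3 of 35 members beside 0.195% of the 13860 genes tested in both. The comparisons use different libraries. Whatever the test, 19 members had a log2 fold change below 0 in both, beside 32.6% of all genes, 6 were above 0 in both, beside 31.5%, and 10 had opposite signs. Slc16a3 and Ak4 kept their calls in all 15 alternatives of each comparison at the same threshold, and Ldha in 12 and 10. At an adjusted p under 0.01 Slc16a3 and Ak4 were still called in both comparisons and Ldha in neither. Per length, Ldha exceeded Ldhb, the heart-type subunit, by 29.4, 30.6 and 29.9 times in the labelled knockout and by 20.04, 22.3 and 21.8 times in D29H. The same ratio was 26.5, 26.3 and 27.8 in Keap1 wild type and 17.96, 19.5 and 20.7 in R554Q. The mutant libraries had the lower ratio without overlap in both strains, and the ratio was not tested.

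The upstream sequences of these 3 genes are shown because they moved together and because the HIF core motif can be read in them. The windows are the 250 bases before a RefSeq transcription start in GRCm38.p6, on the strand of the gene, here the forward strand for all 3. Ldha lies on chromosome 7 (46841475 to 46855627 in the deposited tables), Slc16a3 on chromosome 11 (120948480 to 120960868) and Ak4 on chromosome 4 (101419277 to 101466995). The windows of Ldha and Slc16a3 lie inside these intervals, upstream of a RefSeq start but not of the deposited gene start. The RefSeq table holds 2 windows for Ldha, 4 for Ak4 and 1 for Slc16a3. For each member the window whose start is nearest the 5′ end of the gene in the deposited tables was taken, so the matches hold for that start alone. Capitals mark ACGTG or GCGTG on either strand. Where CACGTG is in capitals the motif stands on both strands, and 2 matches overlap.
Ldha, chr7:46845554-46845803: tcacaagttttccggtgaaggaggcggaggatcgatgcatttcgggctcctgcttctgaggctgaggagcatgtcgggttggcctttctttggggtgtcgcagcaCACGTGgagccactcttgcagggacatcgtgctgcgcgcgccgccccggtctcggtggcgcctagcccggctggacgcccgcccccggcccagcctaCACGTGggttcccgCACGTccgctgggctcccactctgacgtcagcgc
Slc16a3, chr11:120948817-120949066: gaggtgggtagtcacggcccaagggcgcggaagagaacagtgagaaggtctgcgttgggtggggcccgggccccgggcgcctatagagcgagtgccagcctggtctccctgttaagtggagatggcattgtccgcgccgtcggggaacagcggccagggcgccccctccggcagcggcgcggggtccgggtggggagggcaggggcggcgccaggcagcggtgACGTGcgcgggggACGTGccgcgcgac
Ak4, chr4:101419039-101419288: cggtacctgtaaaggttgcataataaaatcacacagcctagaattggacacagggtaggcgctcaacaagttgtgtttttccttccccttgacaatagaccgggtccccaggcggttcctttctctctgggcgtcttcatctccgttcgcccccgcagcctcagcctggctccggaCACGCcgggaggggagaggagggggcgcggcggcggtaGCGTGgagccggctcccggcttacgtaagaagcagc

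Ldha held 5 matches to ACGTG, with the last ending 29 bases before the start. Slc16a3 held 2, the last 9 bases before the start, and Ak4 held 2 matches to GCGTG, the last 31 bases before it. Of the 35 members 32 had a window in the RefSeq table. ACGTG or GCGTG was found in 25 of them (78.1%), in 55.2% of the 12778 windows of genes tested in both comparisons and in 38.6% of all 32851 windows. By group it was in 10 of 16 enzymes, 5 of 5 transport and control genes and 10 of 11 other HIF targets. These shares are not like for like: each member counts 1 window, while the wider sets count every window of a gene. Part of the members was also listed as known HIF targets. Median GC content of the windows was 60.0% in the members and 60.0% in the windows of tested genes. The core of the antioxidant response element to which NRF2 binds, TGACNNNGC on either strand, was in 2 of 32 member windows (6.25%) and in 11.7% of those of tested genes, and in none of the 3 printed here. Windows of the called members did not all hold the HIF core: Eno2, which rose with D29H, had no match. Car9, which also rose with D29H, had 1, and Pfkm, which rose with R554Q, had 2. These matches describe letters in short windows and were not tested against expression.

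The glycolytic enzymes and the other HIF targets were set side by side, as medians of log2 fold changes and as geometric mean CPM per library. In the D29H comparison the medians were -0.24 for the enzymes and -0.18 for the other HIF targets. In the R554Q comparison they were -0.04 and -0.21, but with GC content and length offsets they were -0.0889 and -0.12, so the gap between the lists depends on that setting. With genes of a mean count of at least 50, where Ankrd37 dropped out, the D29H median of the other HIF targets was -0.05. Without R554Q replicate 2 the R554Q median of the enzymes was 0.03. The geometric mean of the 16 enzymes was 206, 219 and 199.6 CPM in the labelled knockout and 192, 177 and 190.0 in D29H, without overlap. In Keap1 wild type it was 212, 212 and 215 CPM and in R554Q 212, 199.3 and 217, so these groups overlapped. The geometric mean of the 14 other HIF targets was 30.2, 29.9 and 31.5 CPM in the labelled knockout and 26.5, 27.3 and 27.1 in D29H. It was 29.2, 30.1 and 29.02 in Keap1 wild type and 25.0, 25.8 and 26.1 in R554Q, so the mutant libraries were lower in both strains. The 5 transport and control genes were at 29.3 ± 1.16 CPM (SD, n = 3) in the labelled knockout, 26.3 ± 0.354 in D29H, 29.6 ± 0.526 in wild type and 26 ± 1.09 in R554Q.

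**Figure D4:**
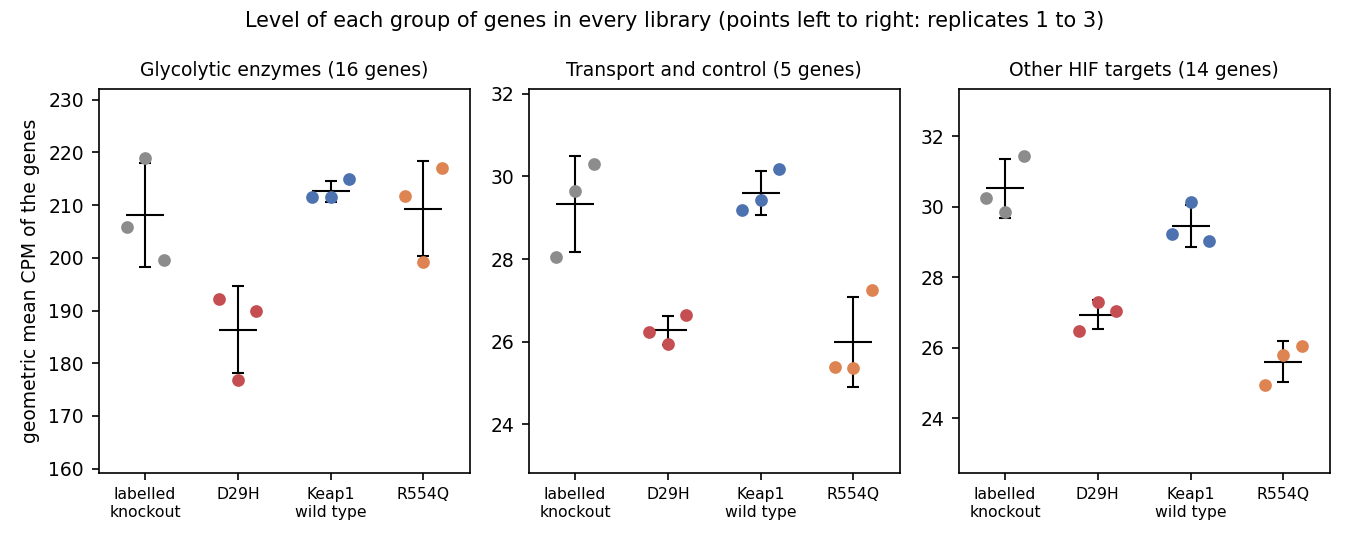
Geometric mean CPM of the glycolytic enzymes, the transport and control genes and the other HIF targets in each library (points, replicates 1 to 3 from left to right), with the group mean and SD on axes that do not start at 0. The other HIF targets are lower in both mutant groups than in their controls. The enzymes of R554Q replicates 1, 2 and 3 lie within, below and above the range of their controls.

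Whether the log2 fold changes of the comparisons differ was then tested gene by gene, in a joint fit of the 12 libraries. The R554Q value was subtracted from that of D29H. Their baselines are unlike, labelled Nrf2 knockout for D29H and Keap1 wild type for R554Q. Baseline, strain and allele cannot be told apart here, so the test does not isolate a difference between alleles. No member passed, beside 0.0270% of 14794 genes. By edgeR 6 of 35 members had an unadjusted p under 0.05, beside 11.3% of all genes, and DESeq2 called none either. Those 6 were Hk1, Pgam1, Bnip3, Pkm, Eno1 and Pfkl, with adjusted p-values from 0.312 to 0.439. The enzymes had the lower value in the D29H comparison for 14 of 16 (median difference -0.24) and the other HIF targets for 7 of 14 (median -0.03, beside 0.01 over all genes). The interval of the difference stayed wide for the shared genes: -0.26 to 0.34 for Slc16a3, -0.49 to 0.23 for Ldha and -0.54 to 0.08 for Ak4 (95% intervals, log2 scale). Gaps within these intervals are not excluded.

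The 2 empty-virus groups were compared as well, labelled Nrf2 knockout minus Keap1 wild type. Culture, strain and NRF2 state all differ between them and cannot be told apart. Slc16a3 was higher in the labelled knockout (log2 fold change 0.38, adjusted p = 0.00998), as was Adm, at 93.9, 91.3 and 97.8 CPM against 71.0, 72.8 and 82.5 (0.32, adjusted p = 0.00686). Both calls were lost without Keap1 wild type replicate 1. Pfkfb3, which raises the allosteric activator of phosphofructokinase, was lower at 19.5, 19.9 and 21.7 CPM against 26.4, 26.7 and 28.2 (-0.41, adjusted p = 0.00227), and Pfkp, the platelet-type phosphofructokinase, was lower at 36.2, 36.4 and 36.5 against 43.7, 45.3 and 44.5 (-0.29, adjusted p = 0.0213). The Pfkp call stood in 14 of 20 alternatives at the same threshold and was lost without any 1 of 5 control libraries (labelled-knockout replicates 1 and 2 and each wild type replicate). The gene Pitrm1 overlaps Pfkp on the other strand with 316% and 259% as many counts in the 2 tables. Over all genes 9.58% were called higher and 10.1% lower, so 2 and 2 of 35 members is near the background. Ak4 (0.00) and Ldha (0.04) had close to equal control levels.

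Of 16 components of the HIF system, 13 were found in both tables under the listed symbols and tested. With D29H 2 of the 13 were called higher, beside 3.47% of all genes, and with R554Q 1 was called higher and 1 lower, beside 3.77% and 2.40%. Hif1a (-0.18 and -0.14 in the D29H and R554Q comparisons) and Epas1, encoding HIF-2 alpha (-0.23 and 0.13), were not called, nor were their partner Arnt (0.06 and -0.01), Vhl (-0.19 and -0.19), whose product recognises hydroxylated HIF, the asparagine hydroxylase Hif1an (0.04 and 0.03), Egln2, Ep300, Rbx1, Tceb1 or Tceb2. Arnt2, a paralogue of Arnt, rose in both (0.71, adjusted p = 0.00364, and 0.93, adjusted p = 6.9e-05). The coactivator Crebbp rose with D29H (0.45, adjusted p = 0.0215), and Cul2, the scaffold of the VHL ligase, fell with R554Q (-0.36, adjusted p = 0.0310). HIF proteins are set mainly by degradation, which these data do not measure.

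A further 40 HIF targets and 40 genes of glucose metabolism were examined. Of the HIF targets, 2 of 39 tested were called with D29H, both lower: the vascular peptide Apln (-0.55) and Angptl4, a lipase inhibitor (-0.54). With R554Q 6 of 40 fell, among them Pgf (-0.55), Angptl4 (-0.51), Flt1 (-0.43), Apln (-0.41) and Loxl2 (-0.32), and the repressor Bhlhe41 rose (0.39). Pgf and Flt1 encode a placental growth factor and its receptor. Of the glucose metabolism genes, 2 of 34 tested rose with D29H, Pdk4 (0.82), a pyruvate dehydrogenase kinase, and Pcx (0.42), pyruvate carboxylase, and 2 fell, Slc16a1 (-0.43) and the muscle enolase Eno3 (-0.40). With R554Q 3 of 33 rose, Gbe1, the glycogen branching enzyme (1.42, SE 0.13), Pcx (0.75) and Pdk4 (0.65), and Eno3 fell (-0.45). Of all genes tested, 1.28% were called lower and 3.47% higher with D29H, and 2.40% lower and 3.77% higher with R554Q.

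The authors' deposited table of the D29H comparison gives an adjusted p for 34 members, 12 of them lower and 1 higher at the same threshold, beside 2.91% lower and 3.37% higher of all 12147 genes with one in the authors' deposited table. Their deposited table of the R554Q comparison gives one for 32 members, 7 lower and 1 higher, beside 4.90% and 5.26% of 10812 genes in the authors' deposited table. Slc16a3, Ak4 and Ldha are lower at that threshold in both of the authors' deposited tables.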

How the data were processed

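RNA was measured in 12 libraries of mouse embryonic fibroblasts, 3 in each of 4 groups taken from the sample labels. The authors deposited 2 tables, 1 for each strain, with raw read counts per gene and FPKM, per the file headers. The authors' group means are a normalised signal per group, and the deposited tables also hold the authors' log2 fold change, p-value and adjusted p-value for each gene. The submitters' processing notes name mm10, STAR and DESeq2 without roles; annotation release, counting tool and strand use are not given in the sources used here. The counts entered the tests, the FPKM only comparisons of levels between genes, and the group means no step.

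Counts were tested in R 4.3.3 with edgeR 4.0.16: filterByExpr, TMM scaling and the quasi-likelihood test (glmQLFit, glmQLFTest), fitted for each table on its own 6 libraries. The difference of the 2 fold changes and the comparison of the empty-virus groups used all 12 libraries and the genes in both tables. P-values were Benjamini-Hochberg adjusted over all genes tested, with a threshold of 0.05. Standard errors were derived from the log2 fold change and its F statistic. CPM were scaled by TMM over all 12 libraries. No library was a duplicate: chi-square per degree of freedom between replicates was 5.65 to 30.4. Depth per library ran from 14963004 to 23818477 reads. The procedure was tested on simulated counts.

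Members, lists and tests were chosen with earlier results of these data known, so no p-value is given for any list. Named are all 35 members, the HIF components, and from the 2 further lists every called gene up to the 6 with the largest change. Promoter windows are from RefSeq (GRCm38.p6), matched by symbol for 32 of 35 members. Alternatives were RLE and upper-quartile scaling, DESeq2 1.42.0, limma 3.58.1 with trend (prior count 2), a mean count of at least 50 or no filter, a replicate block, offsets for GC content and gene length (lowess, span 0.3), an adjusted p under 0.01, all 12 libraries in 1 fit, and leaving out each library.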

Additional observations from a re-analysis of the deposited data

Results flagged for a closer look

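Hk1, the widely expressed hexokinase that phosphorylates glucose in the opening step of glycolysis, was flagged because its libraries moved in opposite directions without overlap. It read 90.0, 97.4 and 93.2 CPM in the labelled knockout and 83.9, 83.1 and 86.5 in D29H, where every library was lower (log2 fold change -0.15, edgeR adjusted p = 0.357). It read 103, 98.2 and 109.8 CPM in Keap1 wild type and 117, 114 and 124 in R554Q, where every library was higher (log2 fold change 0.19, edgeR adjusted p = 0.137). The direct edgeR test of the difference between these fold changes, which have unlike baselines, gave -0.33 (95% interval -0.57 to -0.10). Its unadjusted p was 0.00717 and its adjusted p 0.312 over 14794 genes, so the difference did not pass the threshold.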

How the results depend on the processing

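Slc16a3 and Ak4 were called lower in both comparisons under all 15 alternatives of each that keep the threshold, and at an adjusted p under 0.01. No result reversed its call. In the D29H comparison the 5 members called lower became 3 at an adjusted p under 0.01, 11 with no filter, 10 with DESeq2, 9 with GC content and length offsets, 9 with all 12 libraries in 1 fit, and 2 to 13 when single libraries were left out. The 2 called higher became 0 at an adjusted p under 0.01, 1 with DESeq2, 1 with all 12 libraries in 1 fit, and 0 to 2 when libraries were left out. In the R554Q comparison the 4 called lower became 2 at an adjusted p under 0.01, 7 with no filter, and 2 to 12 when libraries were left out, and the 1 called higher became 0 at an adjusted p under 0.01, 2 with no filter, 0 with the offsets, and 0 to 2. For the other HIF targets the median of -0.18 with D29H became -0.0497 at a mean count of at least 50. Ankrd37 (-0.57) dropped out there, and the median of -0.18 lay in a gap between Ndrg1 (-0.28) and Egln1 (-0.07). The median of these targets ran from -0.26 to -0.15 when libraries were left out. Their median of -0.21 with R554Q became -0.12 with the offsets and ran from -0.27 to -0.14. The enzyme median of -0.04 with R554Q became -0.0889 with the offsets and ran from -0.055 to 0.0266 when libraries were left out. Between the empty-virus groups the 2 called lower became 1 at an adjusted p under 0.01, 5 with the offsets and 1 to 3 when libraries were left out, and the 2 called higher ran from 0 to 3. Where the R554Q effect was subtracted from the D29H effect, the count was 0 under every alternative. The causes were not tested.

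The replicate numbers were also fitted as a replicate block. The numbers do not pair the libraries: deviations of same-numbered libraries correlated with r from -0.146 to -0.111 in the Nrf2 table and from -0.372 to 0.09 in the Keap1 table, where differently numbered libraries reached 0.43 (R554Q replicate 3 with wild type replicate 2) and 0.343 (R554Q replicate 2 with wild type replicate 1). With the block 6 members were called lower and 1 higher with D29H, 3 lower and 0 higher with R554Q, and 1 lower and 2 higher between the empty-virus groups.

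Depth limits Car9, Ankrd37 and Aldoc most, since each is at a few CPM. With 3 libraries a group, the calls of Ldha, Pgam1, P4ha1, Eno2, Car9, Bnip3 and Pfkm each depend on single libraries.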
